A study of Mus musculus with 17 samples.

Results

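The CC chemokine family was followed here through 10 genes, chosen by name as the rows of the deposited count table for Ccl2, Ccl3, Ccl4, Ccl6, Ccl7, Ccl8, Ccl9, Ccl11, Ccl17 and Ccl22, which are 10 of its 55421 genes. Each of the 17 RNA-Seq libraries came from cells cultured from the lung of 1 mouse. All mice, controls included, carried floxed Ephb4 and an inducible Cre driven by Col1a2 (Ephb4f/f; Col1a2-CreERT2) on a C57BL/6J background. Mice of the Ephb4 CKO groups received 4-hydroxytamoxifen (1 mg per day for 5 days), which deletes Ephb4 in cells that express the Cre, from 4 weeks of age. Mice of the Ephb4 control groups received its vehicle, corn oil. At 6 weeks they received bleomycin (1.2 U/kg into the trachea), a drug that injures the lung and leads to fibrosis, or PBS. Lungs were taken on day 14, and the digested tissue was plated and passaged once without sorting. The groups were Ephb4 control PBS (4 mice), Ephb4 control bleomycin (4 mice), Ephb4 CKO PBS (5 mice) and Ephb4 CKO bleomycin (4 mice), and males and females were mixed in them. Mice are numbered within a group only to name them. The design asks what bleomycin changed, whether deletion of Ephb4 changed the same genes, and whether the bleomycin response depended on Ephb4. CKO and control mice differed by 4-hydroxytamoxifen against vehicle. Effects of that drug or of active Cre can therefore not be told apart from loss of Ephb4.

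CC chemokines are small secreted proteins named for a pair of adjacent cysteines near the start of the mature chain. They bind G protein-coupled receptors on leukocytes and draw those cells along a gradient into tissue. In lung, monocytes recruited through Ccl2 and its receptor Ccr2 are a known source of the macrophages that accumulate after injury, and macrophages, fibroblasts and epithelium can all make CC chemokines. The members fall into roles. Ccl2, Ccl7 and Ccl8 are monocyte attractants, Ccl3 and Ccl4 are the macrophage inflammatory proteins 1 alpha and 1 beta, and Ccl3 and the rodent genes Ccl6 and Ccl9 act through Ccr1. Ccl17 and Ccl22 are the ligands of Ccr4, and Ccl11 (eotaxin) is a ligand of Ccr3 on eosinophils.

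The feature that names the family could be read in the reference transcripts (GENCODE M21, build GRCm38). The stretches below, from 9 of the genes, run 5′ to 3′ along the coding strand, with the codons of the 2 adjacent cysteines in capitals and 12 bases on either side. They are shown because members of 1 family can share reads.
Ccl2: gccccactcaccTGCTGCtactcattcacc
Ccl7: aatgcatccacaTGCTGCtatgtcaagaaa
Ccl8: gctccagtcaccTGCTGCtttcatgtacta
Ccl11: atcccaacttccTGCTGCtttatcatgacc
Ccl4: cctcccacttccTGCTGTttctcttacacc
Ccl6: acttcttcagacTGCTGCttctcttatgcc
Ccl9: gactcttcagatTGCTGCctgtcctataac
Ccl17: gtaggccgagagTGCTGCctggattacttc
Ccl22: gaagacagtatcTGCTGCcaggactacatc
The codon pair was TGCTGT in Ccl4 and TGCTGC in the other genes shown. It lay in exon 3 of 4 of the transcripts read for Ccl6 and Ccl9 and in exon 2 of 3 in the other genes shown, for Ccl6 and Ccl9 at chr11:83589386-83589391 and chr11:83575926-83575931 on the minus strand. Runs of 75 bases (the read length) were taken from the coding transcript of each of the 10 members. None occurred in a transcript of another gene, on either strand. No full-length read that matches these coding transcripts exactly could therefore also match another annotated gene. The other annotated transcripts of Ccl2, Ccl6, Ccl9 and Ccl22 were not searched. Gm17268 and E230016K23Rik overlap Ccl2 and Ccl6 on the opposite strand, and the reads were counted with strand.

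Of the 10 members, 8 lie in 1 region of chromosome 11, in the order Ccl2, Ccl7, Ccl11, Ccl8, Ccl9, Ccl6, Ccl3 and Ccl4. The monocyte attractants span 82035571 to 82116799. The gap from Ccl8 to Ccl9 is 1456119 bases, and Ccl9 to Ccl4 span 83572919 to 83664683. Ccl2 and Ccl7 are 8258 bases apart, Ccl9 and Ccl6 9245 bases, and Ccl3 and Ccl4 13228 bases. Ccl22 (94745590 to 94751699) and Ccl17 (94810453 to 94812036) lie on chromosome 8, 58753 bases apart.

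Total counts ranged from 66540022 to 120554468 per library. Ephb4, the targeted gene, averaged 38.5 ± 21.3 CPM (counts-per-million units; SD, n = 4) in control bleomycin, 16.0 ± 15.3 (n = 4) in control PBS, 9.66 ± 8.09 (n = 5) in CKO PBS and 9.64 ± 3.70 (n = 4) in CKO bleomycin. The ranges of CKO and control libraries overlapped in both treatments (edgeR adjusted p = 0.220 after bleomycin and 1.00 after PBS), and the counts are for the whole gene, so reads from outside the deleted part are included. In 3 libraries (control bleomycin mouse 2 and CKO bleomycin mice 1 and 2) sex-linked transcripts went against the recorded sex, and values without them are given for the comparisons that use them. All CPM use library sizes adjusted with the trimmed mean of M values. The label primary fibroblasts was checked against marker lists. The 14 fibroblast markers summed to 59.2 to 9066 CPM in control PBS, 7417 to 15190 in control bleomycin, 121.3 to 2673 in CKO PBS and 106 to 2555 in CKO bleomycin. The 19 macrophage markers summed to 11861 to 51430, 1593 to 22328, 26986 to 45006 and 26255 to 48063 CPM in the same order, and none of them was at 0 in any library. The macrophage sum was above the fibroblast sum in every library except control bleomycin mouse 1 (1593 against 13380 CPM), and Postn and Tcf21 were at 0 in some CKO PBS libraries and Tcf21 in some control PBS libraries. The 5 epithelial markers summed to 102.7 to 1800 CPM in control PBS, 153.8 to 962 in control bleomycin, 91.4 to 2141 in CKO PBS and 25.4 to 898 in CKO bleomycin. That sum was above the fibroblast sum in some libraries, among them CKO PBS mouse 2 (2141 against 1819 CPM). The material is therefore called lung cultures below. All chemokine values come from these mixed cultures, in which fewer cells of a type and less RNA per cell cannot be told apart.

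Ccl6 was by far the most abundant member. On the scale of CPM per kilobase of exon, which allows levels of different genes to be compared, its median over the 17 libraries was 2105, followed by Ccl9 (185), Ccl3 (72.5), Ccl2 (47.5), Ccl7 (34.1), Ccl4 (6.82), Ccl22 (2.76), Ccl8 (1.52), Ccl17 (0.721) and Ccl11 (0). Ccl6 lay above Ccl9 in 17 of 17 libraries and Ccl9 above Ccl3 in 16. Ccl2 lay above Ccl7 in 15. Ccl17 lay above Ccl11 in 15 and Ccl4 above Ccl22 in 14. Ccl3 was above Ccl2 in 12 libraries, Ccl7 above Ccl4 in 11, Ccl22 above Ccl8 in 10 and Ccl8 above Ccl17 in 10, so the order within these 4 pairs is not firm. Ccl6 took up to 0.934% of all counts of a library (control PBS mouse 2). It was the highest member per kilobase in 16 libraries, and Ccl3 was the highest in the remaining library, CKO PBS mouse 1.

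**Figure D1:**
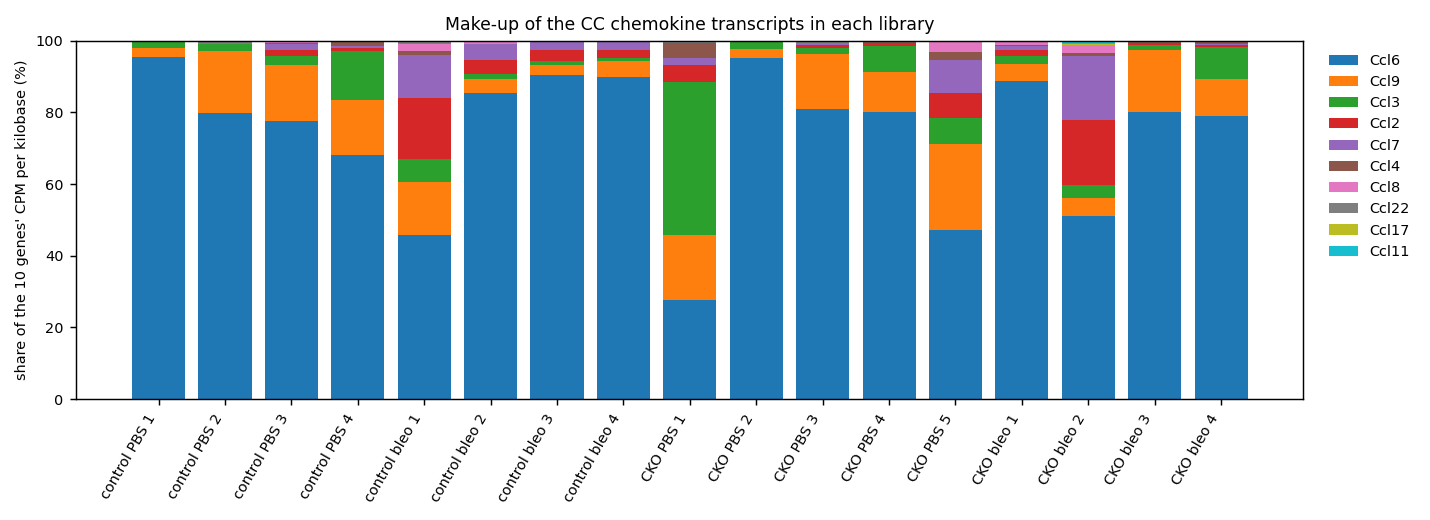
Share of each gene in the summed CPM per kilobase of the 10 genes (y axis, percent), for each of the 17 libraries (x axis, bars stacked to 100%). Ccl6 filled 27.7 to 95.4% of the bar, and its smallest shares were in CKO PBS mouse 1, where Ccl3 took 42.7%, and in control bleomycin mouse 1 (45.7%).

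A gene entered the test if it exceeded 10 CPM in at least 2 libraries, which 10481 genes did. Of the 10 members, 8 passed. Ccl8 passed only through 3 CKO libraries, where it is high, and Ccl4 only through 4 libraries, all of PBS mice. The values of Ccl8 for CKO against control and of Ccl4 for bleomycin against PBS are therefore given as descriptions. Ccl11 exceeded 10 CPM in 1 library and Ccl17 in none, and both are given below by their values. The groups were compared with edgeR's quasi-likelihood test over all 17 libraries, with Benjamini-Hochberg adjustment over the 10481 genes and a threshold of 0.05 for the adjusted p. No member and no other gene passed that threshold in any of the 5 comparisons. The values are therefore given with the standard error (SE) of each log2 fold change and the share of all tested genes that met the same looser criterion.

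**Figure D2:**
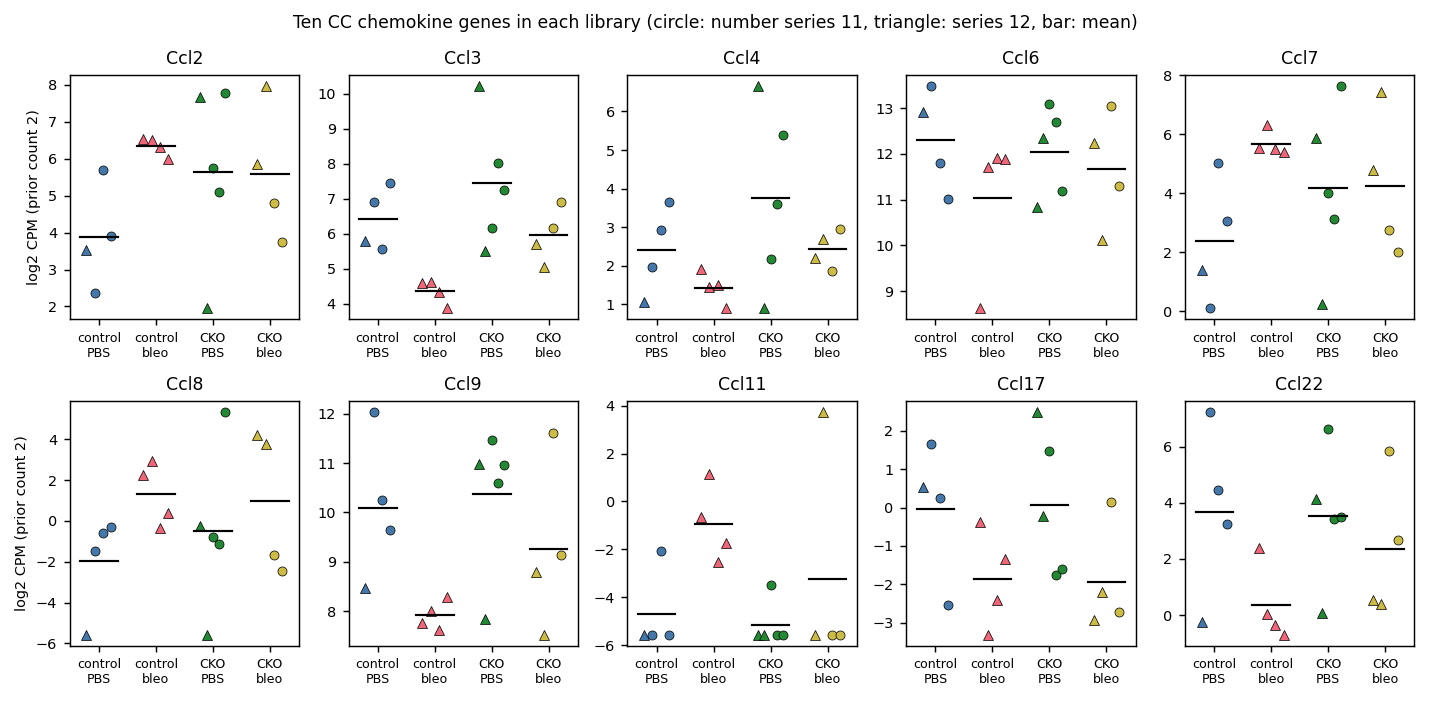
Level of each gene (y axis, log2 CPM with a prior count of 2; each panel has its own scale) in every library, by group (x axis). Circles are mice whose number in the labels belongs to series 11, triangles those of series 12, and bars are group means. The 4 control bleomycin libraries lay together for Ccl2, Ccl3 and Ccl9, whereas Ccl2 ran from 3.85 to 217 CPM among CKO PBS libraries.

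The first comparison asks what bleomycin did in mice with Ephb4. In Ephb4 control mice the members did not go one way. The monocyte attractants Ccl2 and Ccl7 lay higher in all 4 bleomycin libraries than in any PBS library, Ccl3 and Ccl9 lay lower in all 4 than in any PBS library, and none of these differences passed the adjusted threshold. Ccl2, the ligand of Ccr2, was at 11.5, 5.16, 51.5 and 14.9 CPM in PBS mice 1 to 4, and at 92.7, 90.9, 80.0 and 63.6 CPM in bleomycin mice 1 to 4. The log2 fold change was 1.98 (SE 1.05, edgeR adjusted p = 0.396). Ccl7, its close neighbour, was at 2.60, 1.05, 32.5 and 8.32 CPM with PBS and at 46.0, 79.2, 45.1 and 42.2 CPM with bleomycin. PBS mouse 3 was the highest of its group for both genes and still lay below every bleomycin library. The log2 fold change of Ccl7 was 2.26 (SE 1.41, edgeR adjusted p = 0.450). Without PBS mouse 3 the log2 fold changes of Ccl2 and Ccl7 were 2.99 and 3.78. Ccl8, the third monocyte attractant of the same region, had 0, 30, 63 and 79 counts with PBS and 579, 857, 103 and 126 counts with bleomycin, or 0 to 0.791 and 0.776 to 7.60 CPM. Its groups just overlapped, and its log2 fold change was 3.01 (SE 1.98, edgeR adjusted p = 0.475). Among all tested genes, 5.72% had non-overlapping groups with bleomycin higher, against 2 of 8 members.

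Ccl3 (macrophage inflammatory protein 1 alpha) went the other way. It was at 55.5, 118, 46.8 and 175 CPM in control PBS and at 24.0, 24.3, 20.1 and 14.6 CPM in control bleomycin, with no overlap. Its log2 fold change was -2.26 (SE 0.84, unadjusted p = 0.0168, edgeR adjusted p = 0.320). Ccl9, a Ccr1 ligand, was at 354, 4192, 1217 and 797 CPM with PBS and at 217, 255, 197 and 314 CPM with bleomycin, again with no overlap, although PBS mouse 1 lay close to the bleomycin libraries. The log2 fold change of Ccl9 was -2.74 (SE 0.92, unadjusted p = 0.00923, edgeR adjusted p = 0.305). Ccl22, made by macrophages and dendritic cells, was at 0.830, 151, 21.9 and 9.45 CPM with PBS and at 5.28, 1.00, 0.753 and 0.597 CPM with bleomycin. PBS mouse 1 overlapped the bleomycin libraries, and the log2 fold change was -4.58 (SE 1.72, unadjusted p = 0.0177, edgeR adjusted p = 0.320). PBS mouse 2 was the highest library for Ccl9 and Ccl22, and without it their log2 fold changes were -1.67 and -2.48. Ccl6, the other rodent Ccr1 ligand, was at 7751, 11511, 3550 and 2065 CPM with PBS and at 395, 3356, 3862 and 3778 CPM with bleomycin. Its groups overlapped, with 1 low library in bleomycin mouse 1, and its log2 fold change was -1.13 (SE 0.76), or -0.63 without PBS mouse 2. Ccl4 was at 2.08 to 12.6 CPM with PBS and at 1.84 to 3.73 CPM with bleomycin, with overlap, and its log2 fold change was -1.25 (SE 0.90), or -0.71 without PBS mouse 4. Of the 8 members tested, 2 had non-overlapping groups with bleomycin lower, against 3.20% of all genes, and 3 had an unadjusted p under 0.05 with bleomycin lower, against 7.98%. The median log2 fold change was -1.19 over the 8 members and -0.06 over all tested genes. The edgeR count of calls in this comparison was 0 of 10481 (0%), with 1494 genes at an unadjusted p under 0.05. DESeq2 without a covariate called 166 genes, of which 1 member, Ccl22 (adjusted p = 0.0401), and limma voom with sample quality weights called 46 genes and no member. Without the 3 libraries at odds with their recorded sex, the log2 fold changes of the 8 members kept their direction, from -4.36 (Ccl22) to 2.37 (Ccl8).

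**Figure D3:**
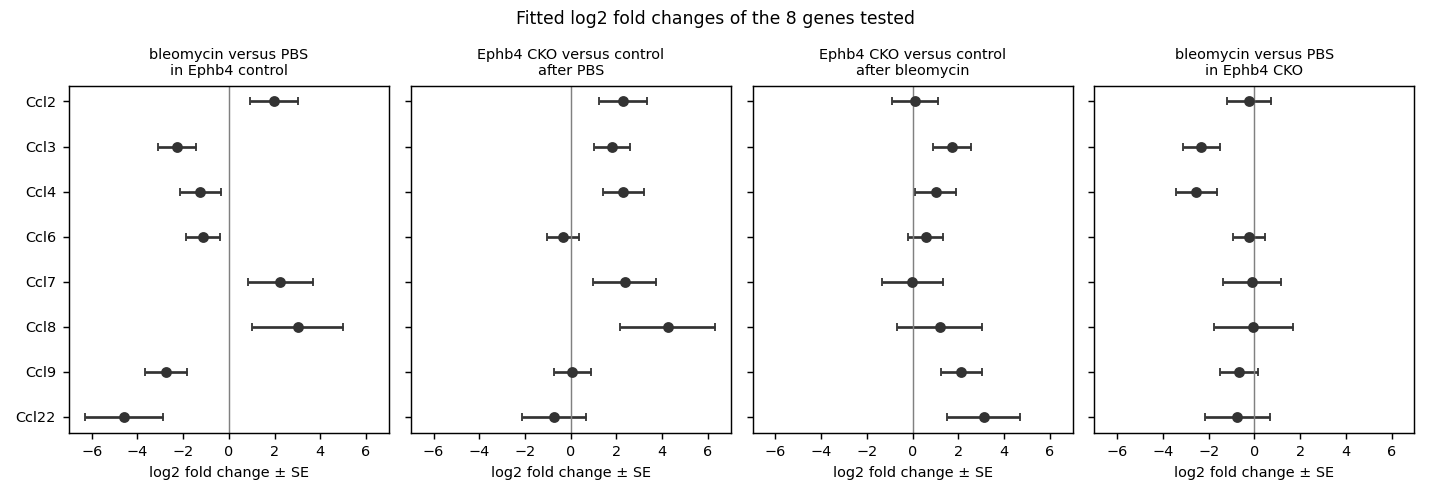
Log2 fold change (x axis, points) with its SE (bars) for the 8 members tested (y axis) in the 4 pairwise comparisons. In control mice Ccl2, Ccl7 and Ccl8 lay to the right of 0 and Ccl3, Ccl9 and Ccl22 to the left, and after bleomycin the CKO minus control difference of Ccl9 and Ccl22 lay to the right.

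Cell-type markers moved with this comparison. The fibroblast marker score, the mean log2 CPM of the 12 fibroblast markers tested, was 0.39 to 7.99 in control PBS and 8.20 to 9.06 in control bleomycin, with no overlap (difference 5.20, 2-sided exact permutation p = 0.0286, the smallest that 4 against 4 allows). The macrophage score was 7.88 to 9.78 and 4.90 to 8.35 (difference -1.59, exact permutation p = 0.114). All 12 fibroblast markers tested had log2 fold changes above 0, with a median of 2.40, and all 18 macrophage markers tested had log2 fold changes below 0, with a median of -1.08. Smooth muscle markers were also higher (3 of 3 tested, median 3.42). Of the dendritic cell markers, cells that can make Ccl17 and Ccl22, 2 of 9 passed the filter, 1 higher and 1 lower, and of 5 lymphocyte markers none passed. With the fibroblast score as a covariate in the same edgeR fit, the log2 fold change of Ccl2 was 0.02, that of Ccl7 was -0.26, that of Ccl3 was -0.67 and that of Ccl9 was -2.60. With the macrophage score as a covariate they were 1.56, 1.95, -1.64 and -2.17. What part the cell mixture has in these differences was not tested beyond these fits.

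The animals' numbers form 2 series (11 and 12), and these were not spread evenly over the groups. All 4 control bleomycin mice were of series 12, against 1 of 4 in control PBS, 2 of 5 in CKO PBS and 2 of 4 in CKO bleomycin. Ccl22 and Ccl9 followed the series. Ccl22 was at 6.42 to 151 CPM (median 16.7, n = 8) in series 11 and at 0.597 to 17.4 CPM (median 1.03, n = 9) in series 12. Ccl9 was at 563 to 4192 CPM (median 1771) in series 11 and at 185 to 2007 CPM (median 255) in series 12. The 1 series 12 library with high values of both was CKO PBS mouse 1. With the series as a covariate, the log2 fold change of bleomycin in control mice was -0.96 for Ccl22 and -1.08 for Ccl9, and within series 12 alone it was 1.20 and -0.54, there with 1 PBS mouse. The values of Ccl3 and Ccl2 were -2.47 and 1.28 with the covariate and -1.43 and 2.82 within series 12. Since all control bleomycin mice were of 1 series, the part of the series in the values of Ccl9 and Ccl22 cannot be told apart from that of bleomycin.

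The next comparison asks what deletion of Ephb4 did without bleomycin. The CKO PBS and control PBS groups overlapped for every member. The 5 CKO cultures differed widely among themselves, and mice 1 and 5 held the 2 highest levels of Ccl2, Ccl4 and Ccl7 in their group. Ccl3 was at 1199, 45.0, 72.1, 261 and 152 CPM in CKO PBS mice 1 to 5, against 46.8 to 175 CPM in control PBS. Ccl4, the neighbour of Ccl3, was at 102, 1.85, 4.50, 12.1 and 41.8 CPM in the CKO mice and at 2.08, 3.91, 7.58 and 12.6 CPM in the control mice. Mouse 2 was the lowest CKO library for both. The log2 fold changes were 1.80 (SE 0.80, edgeR adjusted p = 1.00) for Ccl3 and 2.31 (SE 0.90, edgeR adjusted p = 1.00) for Ccl4. Both rested in part on CKO PBS mouse 1, without which they were 0.42 and 1.22. Ccl2 was at 201, 3.85, 54.0, 33.9 and 217 CPM in CKO PBS and Ccl7 at 58.4, 1.15, 16.1, 8.72 and 200 CPM. Mice 1 and 5 lay above every control PBS library for both genes, and mouse 2 lay below every control PBS library for Ccl2. Their log2 fold changes were 2.30 (SE 1.04) and 2.36 (SE 1.37), both with an edgeR adjusted p of 1.00, and without mouse 5 they were 1.82 and 0.92. Ccl8 had 68, 0, 49, 40 and 3270 counts, and its log2 fold change of 4.24 (SE 2.06) was 0.04 without mouse 5. Since Ccl8 passed the filter only through CKO libraries, this value was not read as a difference. Ccl6 was at 1820 to 8782 CPM in CKO PBS (median 5233, n = 5), with mouse 1 below the lowest control PBS library (2065 CPM) and the other 4 within the control range. Ccl9 was at 2007, 230, 2844, 1558 and 1984 CPM, with mouse 2 alone below the control range. Ccl22 was at 17.4, 1.03, 98.6, 10.6 and 11.4 CPM, again lowest in mouse 2 and highest in mouse 3. The log2 fold changes of Ccl6, Ccl9 and Ccl22 were -0.33 (SE 0.71), 0.07 (SE 0.82) and -0.72 (SE 1.40), and without control PBS mouse 2 they were 0.15, 1.12 and 1.34. Ccl2, Ccl3 and Ccl4 had an unadjusted p under 0.05 with CKO higher, 3 of 8 members against 1.43% of all tested genes. The median log2 fold change was 2.05 over the members, Ccl8 included, and -0.02 over all genes. The edgeR count of calls was 0 (0%), with 209 genes at an unadjusted p under 0.05, and DESeq2 called 1 gene and voom with quality weights 0, with no member among them. Fibroblast scores (1.48 to 6.41 in CKO PBS) and macrophage scores (8.68 to 9.59) overlapped those of the control PBS group (exact permutation p = 0.921 and 0.556). With the fibroblast score as a covariate the log2 fold changes of Ccl2, Ccl3 and Ccl4 were 2.55, 1.90 and 2.31.

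The third comparison asks the same after bleomycin. The CKO cultures held more Ccl3, Ccl9 and Ccl22 on average than control cultures, and Ccl2 and Ccl7 had log2 fold changes near 0, with no adjusted p under 0.05. Ccl3 was at 51.7, 33.3, 71.2 and 120.5 CPM in CKO bleomycin mice 1 to 4, each above the highest control bleomycin library (24.3 CPM). Its log2 fold change was 1.74 (SE 0.82, unadjusted p = 0.0520, edgeR adjusted p = 0.248). Ccl9 was at 444, 185, 3105 and 563 CPM, and mouse 2 lay below all control bleomycin libraries. Its log2 fold change was 2.13 (SE 0.90, unadjusted p = 0.0313, edgeR adjusted p = 0.227). Ccl22 was at 1.42, 1.30, 57.0 and 6.42 CPM, with log2 fold change 3.11 (SE 1.61, edgeR adjusted p = 0.270). The 2 CKO mice that were high in Ccl22, mice 3 and 4, were those of series 11. With the series as a covariate its log2 fold change was -0.0041 and within series 12 it was -0.47, and for Ccl9 the values were 0.74 and 0.38. Without CKO bleomycin mouse 3 the log2 fold changes of Ccl9 and Ccl22 were 0.69 and 0.67. The log2 fold change of Ccl3 was 1.91 with the series as a covariate, and within series 12 it was 1.06 (adjusted p = 0.600). Ccl2 was at 57.8, 251, 27.9 and 13.3 CPM in CKO bleomycin, with mouse 2 above and mice 1, 3 and 4 below every control bleomycin library. Its log2 fold change was 0.10 (SE 1.02) and that of Ccl7 was -0.01 (SE 1.34), so that neither could be told from 0, and differences of the size of these SE in either direction could not be detected. Ccl7 was at 27.3, 173, 6.66 and 3.99 CPM, again with mouse 2 above and mice 1, 3 and 4 below every control bleomycin library. Ccl8 was at 18.6, 13.7, 0.295 and 0.164 CPM, with mice 1 and 2 above and mice 3 and 4 below every control bleomycin library. CKO mouse 2 was the highest library of its group for Ccl2 and Ccl7, and without it the log2 fold changes of these genes were -1.31 and -2.07. Mice 1 and 2, the high pair for Ccl8, are also the CKO libraries whose sex-linked transcripts went against the record. Without the 3 such libraries, the CKO mice left (3 and 4) are of series 11 and the control mice left are of series 12. Genotype and series can therefore not be told apart in that fit. Its log2 fold changes were -1.97 for Ccl2, -3.10 for Ccl7 and -3.35 for Ccl8. For Ccl3, Ccl9 and Ccl22 they were 2.25, 2.88 and 3.795. No adjusted p of these members was under 0.05 in it. Ccl6 was at 4795, 1109, 8461 and 2532 CPM, and its groups overlapped (log2 fold change 0.57, SE 0.75). Ccl4 (1.02, SE 0.89) and Ccl8 (1.18, SE 1.85), which passed the filter only through CKO libraries, overlapped as well. Of the 8 members, 1 (Ccl3) had non-overlapping groups with CKO higher, against 11% of all tested genes, and 1 (Ccl9) had an unadjusted p under 0.05 with CKO higher, also against 11%, so these counts are near the background. The median log2 fold change was 1.10 over the members, Ccl8 included, and 0.01 over all genes.

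The tools disagreed most in this comparison. By edgeR no gene passed (0%), although 2119 had an unadjusted p below 0.05. DESeq2 without a covariate called 399 genes and no member, and voom with quality weights called 4651 genes, among them Ccl3 (log2 fold change 1.64, adjusted p = 0.00458) and no other member. Here too the cell-type markers moved. The fibroblast score was 0.89 to 7.06 in CKO bleomycin, below all control bleomycin libraries (difference -4.50, exact permutation p = 0.0286), and the macrophage score was 8.73 to 9.68, above all of them (difference 1.80, exact permutation p = 0.0286). These p-values are the smallest that 4 against 4 allows. With the fibroblast score as a covariate the log2 fold change of Ccl3 was 0.36, that of Ccl9 was 2.02 and that of Ccl22 was 3.98. With the macrophage score as a covariate they were 1.11, 1.52 and 4.42. What part the cell mixture has in the difference of Ccl3 was not tested beyond these fits.

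In CKO mice, bleomycin and PBS cultures overlapped for every member. Ccl3 and Ccl4 were lower on average with bleomycin, with log2 fold changes of -2.32 (SE 0.82, unadjusted p = 0.0124) and -2.54 (SE 0.91, unadjusted p = 0.0139), and an edgeR adjusted p of 1.00 for both. They are 2 of 8 members, against 0.716% of all tested genes with an unadjusted p under 0.05 and bleomycin lower. Ccl4 passed the filter only through PBS libraries, so its p and its place in this count are no support. CKO PBS mouse 1 was the highest library for Ccl3 and Ccl4 (1199 and 102 CPM), and without it their log2 fold changes were -0.94 and -1.45. Without the 3 libraries at odds with their recorded sex they were -1.88 and -2.55. The CKO bleomycin mice left in that fit (3 and 4) are both of series 11. The other 6 members had log2 fold changes from -0.75 (Ccl22) to -0.05 (Ccl8), and those of the monocyte attractants moved with the libraries left out. Without the 3 libraries at odds with their recorded sex they were -2.34 for Ccl2, -3.46 for Ccl7 and -5.24 for Ccl8, and without CKO PBS mouse 5 they were 0.26, 1.32 and 4.15. For Ccl6, Ccl9 and Ccl22 the values without the 3 libraries were 0.12, 0.058 and 0.17. By edgeR no gene passed (0%) and 101 had an unadjusted p below 0.05, and DESeq2 called 1 gene and voom with quality weights 0, with no member among them. The fibroblast and macrophage scores overlapped between the groups (exact permutation p = 0.571 and 0.698). The interaction of genotype and bleomycin, which asks whether the bleomycin response differed between CKO and control mice, gave no call (0% of genes; 363 at an unadjusted p under 0.05, none of them a member, and 0 calls by DESeq2 and by voom). The smallest p-values among members were those of Ccl22 and Ccl9, with values of 3.83 (SE 2.10, unadjusted p = 0.0873) and 2.05 (SE 1.19, unadjusted p = 0.105), a positive value meaning a higher bleomycin to PBS ratio in CKO mice. The 3 monocyte attractants had negative values, -2.20 (SE 1.43) for Ccl2, -2.37 (SE 1.89) for Ccl7 and -3.06 (SE 2.61) for Ccl8, and Ccl3 gave -0.06 (SE 1.11). The edgeR adjusted p was 0.916 for all of these but Ccl3 (0.996). These comparisons share groups, so their values are not independent of one another.

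Ccl11 and Ccl17 were too low for the test across genes. Ccl11 was listed at 0 in 3 of 4 control PBS, 4 of 5 CKO PBS and 3 of 4 CKO bleomycin libraries, with 21 and 6 counts in the control PBS and CKO PBS mice 3. A count of 0 allows up to 3 counts, or 0.0274 to 0.0509 CPM in these libraries, for counting error only. All 4 control bleomycin libraries had counts (75, 244, 20 and 27, or 0.151 to 2.16 CPM). CKO bleomycin mouse 2 had 1422 counts (13.3 CPM), the highest of all. The difference of mean log2 CPM between control bleomycin and control PBS was 3.74 (2-sided exact permutation p = 0.0571), and the other 3 comparisons gave exact permutation p-values of 0.400 to 0.889. Ccl17 was detected in every library, at 9 to 460 counts and 0.0798 to 5.61 CPM, with its highest value in CKO PBS mouse 1. Its mean log2 CPM differed by -1.84 between bleomycin and PBS in control mice (exact permutation p = 0.171) and by -2.003 in CKO mice (exact permutation p = 0.111). The groups overlapped in both cases.

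Some members varied together across libraries, in 3 sets. Pearson's r of log2 CPM over the 17 libraries was 0.97 for Ccl2 and Ccl7, 0.84 for Ccl7 and Ccl8 and 0.79 for Ccl2 and Ccl8. It was 0.84 for Ccl3 and Ccl4. It was 0.92 for Ccl9 and Ccl22, which lie on different chromosomes. With each library taken as its deviation from its group mean, these values were 0.97, 0.82, 0.76, 0.78 and 0.89, so they held among mice of the same group. Ccl6 and Ccl9, the 2 rodent Ccr1 ligands with 9245 bases between them, had r of only 0.47 (0.33 within groups). Ccl6 ran against the monocyte attractants, with r of -0.59 with Ccl7 and -0.54 with Ccl2. These are descriptions over libraries that share depth, cell mixture and number series.

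**Figure D4:**
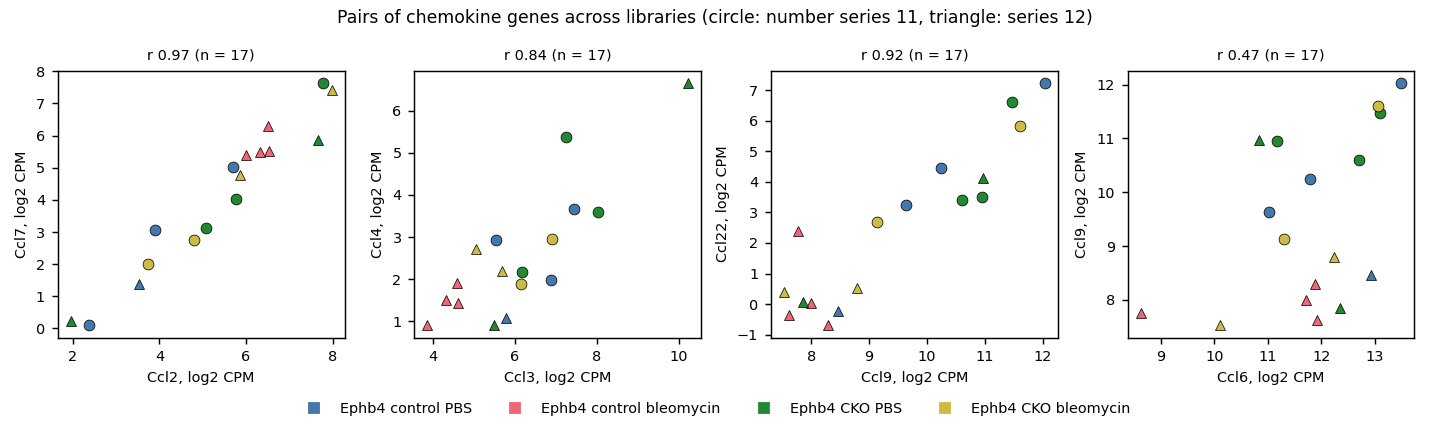
Log2 CPM of 4 pairs of genes (x and y axes) in the 17 libraries, coloured by group, with circles for number series 11 and triangles for series 12. Ccl2 and Ccl7 fell on a line (r 0.97), Ccl3 and Ccl4 (0.84) and Ccl9 and Ccl22 (0.92) followed each other, and Ccl6 and Ccl9 did so weakly (0.47).

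The upstream sequences of 3 genes are shown because Ccl9 and Ccl22 moved together while Ccl6, next to Ccl9, did not. They are the 100 bases before the RefSeq start (GRCm38.p6), 5′ to 3′ on the gene's strand. Capitals mark the motifs found.
Ccl9 (chr11:83578637-83578736, minus strand): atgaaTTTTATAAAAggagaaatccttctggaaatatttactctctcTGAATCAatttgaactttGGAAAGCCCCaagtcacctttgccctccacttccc
Ccl6 (chr11:83593088-83593187, minus strand): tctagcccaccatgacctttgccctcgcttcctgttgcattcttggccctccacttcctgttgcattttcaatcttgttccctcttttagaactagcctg
Ccl22 (chr8:94745584-94745683, plus strand): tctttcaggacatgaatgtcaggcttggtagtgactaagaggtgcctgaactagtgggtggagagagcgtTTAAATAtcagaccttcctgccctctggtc
The promoters were searched for 7 motifs on both strands over the 250 bases before the start, in 32851 RefSeq promoters of which 6 are of members (Ccl3, Ccl6, Ccl8, Ccl9, Ccl17 and Ccl22). TATAAA was found in Ccl8 and Ccl9 and in 12.4% of all promoters, and the looser TATNNAA, which overlaps it, in all 6 members and 29.0% of promoters. The AP-1 motif TGANTCA was in Ccl9 (6.75% of promoters), the NF-kB motif in Ccl9 (3.90%) and the palindromic STAT6 motif in Ccl17 (5.85%). The PU.1 core GAGGAAGT (2.44%) and the C/EBP motif TTNNGCAAT (1.93%) were in none of the 6. In Ccl9 the NF-kB match ended 26 bases and the AP-1 match 47 bases before the start. A match describes letters and no bound factor.

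The members were then set against the marker scores over the 17 libraries, in 16 relations of 8 members and 2 scores (100000 permutations, Benjamini-Hochberg over the 16). Ccl3 fell as the fibroblast score rose (r = -0.72, permutation p = 0.00065, adjusted p = 0.0104; rho = -0.83, adjusted p = 0.00064). Without the 2 libraries farthest from the median score r was -0.66. Within groups it was -0.48 (adjusted permutation p = 0.296), and it was -0.82 within series 11 (n = 8, exact adjusted permutation p = 0.111) and -0.65 within series 12 (n = 9, exact adjusted permutation p = 0.273). Ccl3 rose with the macrophage score by rank (rho = 0.89, permutation p = 1e-05, the smallest that these permutations can give, adjusted p = 0.00016), while r was 0.60 (adjusted permutation p = 0.0656). Control bleomycin mouse 1 had a macrophage score of 4.90, far below the rest, and without it and control PBS mouse 3 r was 0.82. Ccl2 and Ccl7 rose with the fibroblast score, with r of 0.59 and 0.64 (adjusted permutation p = 0.0533 and 0.0523) and rho of 0.58 and 0.59 (adjusted permutation p = 0.0458 for both). Ccl4 and Ccl9 had rho of 0.62 with the macrophage score (adjusted permutation p = 0.0366 for both). Within groups, r with the macrophage score was 0.10 for Ccl4, 0.26 for Ccl9 and 0.30 for Ccl3 (adjusted permutation p = 0.953, 0.353 and 0.285). With the fibroblast score it was 0.61 for Ccl2 and 0.59 for Ccl7 within groups (adjusted permutation p = 0.285 for both). Ccl6, the most abundant member, had an r of 0.59 with the macrophage score that rested on control bleomycin mouse 1 and control PBS mouse 3, since it was 0.03 without them. In all, 1 of the 16 relations passed by r and 6 by rho.

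**Figure D5:**
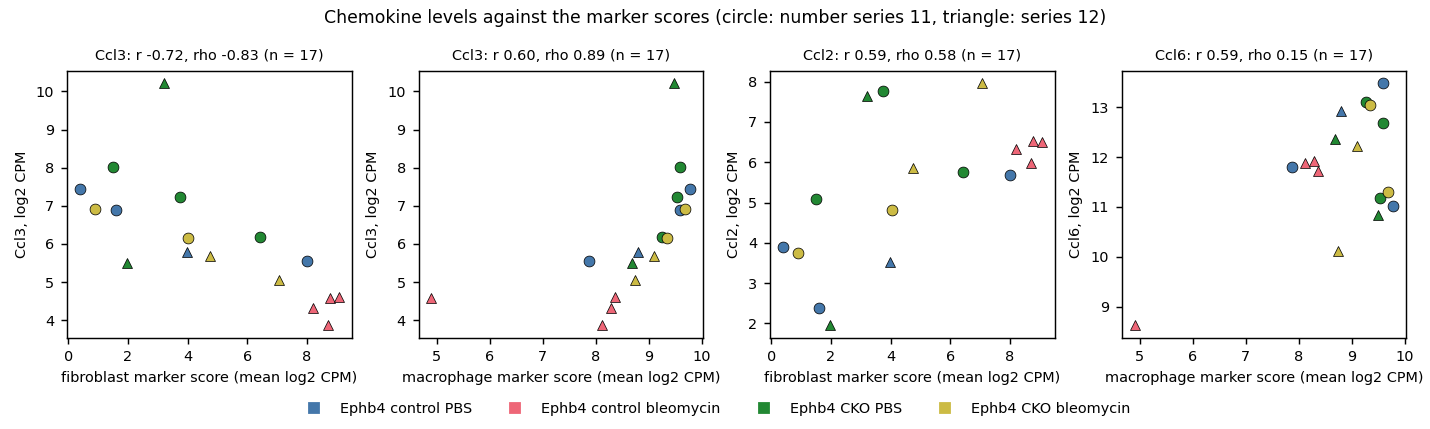
Log2 CPM of Ccl3, Ccl2 and Ccl6 (y axes) against the fibroblast or macrophage marker score (x axes, mean log2 CPM of the list), 1 point per library, coloured by group, with circles for number series 11 and triangles for series 12. Ccl3 fell with the fibroblast score (r -0.72), and the control bleomycin library at a macrophage score of 4.90 stood apart in the panels of Ccl3 and Ccl6.

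Genes most like each member were taken as those with the highest r of log2 CPM over the 17 libraries. For Ccl3 they were Plaur, the urokinase receptor (0.95), and Acod1, which makes itaconate in activated macrophages (0.94). For Ccl4 they were Dcstamp, needed for fusion of macrophages (0.93), Gbp2, an interferon-induced GTPase (0.93), and Zcchc4 (0.91). For Ccl2 they were Ifitm3 (0.89), the Notch effector Rbpj (0.87) and Pdpn, podoplanin (0.86). For Ccl7 they were the transcription factor Maf (0.90), B3galnt1 (0.90) and Ifitm3 (0.89). For Ccl8 they were Emilin2 (0.87) and Sh3kbp1 (0.86). For Ccl6 they were the guanine deaminase Gda (0.96), the peroxisomal transporter Abcd2 (0.93) and Pnpla8 (0.92). For Ccl9 they were Hilpda, a lipid droplet protein (0.93), Cd47 (0.92) and Gzf1 (0.91), and for Ccl22 they were Psma6 (0.91) and Tle3 (0.91). All are among the top 3 of 10481 genes for their member and are given as descriptions.

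Most receptors of the members were scarce in the cultures. Of 15 CC chemokine receptors and scavengers, most did not pass the filter, and Ccr1 and Ccrl2 were among those that did. Ccr1, the receptor of Ccl3, Ccl6 and Ccl9, averaged 132 ± 62.1 CPM (n = 4) in control PBS, 63.7 ± 27.9 (n = 4) in control bleomycin, 355 ± 299 (n = 5) in CKO PBS and 153 ± 48.6 (n = 4) in CKO bleomycin. Ccrl2, a chemerin-binding receptor, averaged 60.9 ± 71.4 CPM (n = 4) in control PBS and 11.7 ± 6.27 (n = 4) in control bleomycin. Its log2 fold change was -2.38 (SE 0.83, unadjusted p = 0.0116) in control mice and 2.25 (SE 0.82, unadjusted p = 0.0154) for CKO against control after bleomycin. Ccr2, the receptor of Ccl2, reached at most 8.39 CPM, Ccr3 7.43 CPM and Ccr4 0.916 CPM. Ccr1 and Ccrl2 both had log2 fold changes above 0 for CKO against control after bleomycin and below 0 for bleomycin in control mice, and no adjusted p was under 0.05 for any gene of the lists.

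Among the other CC chemokines, 1 of 20 identifiers passed the filter. This was Ccl5 (RANTES), at 0.268 to 0.621 CPM in control bleomycin and at 0.814 to 451 CPM in CKO PBS, where mouse 1 had 37001 counts. It reached at most 6.45 CPM in control PBS and 8.09 CPM in CKO bleomycin, so it passed the filter only through the CKO PBS libraries, and no test of it is given. The gene lists that follow were read in the comparisons in which the marker scores also moved (macrophage score -1.59 with bleomycin in control mice and 1.80 for CKO after bleomycin, fibroblast score 5.20 and -4.50), and the part of the cell mixture in them was not tested. Over all tested genes, 44.5% had a log2 fold change above 0 with bleomycin in control mice and 50.7% for CKO after bleomycin, and 7.98% had an unadjusted p under 0.05 with bleomycin lower and 11% with CKO higher.

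Of the 13 NF-kB inducers, subunits and inhibitors, 10 were lower with bleomycin in control mice, 5 of them at an unadjusted p under 0.05 with bleomycin lower. The smallest p-values were those of the inhibitor Tnfaip3 (log2 fold change -1.63, SE 0.51) and the subunit Rel (-1.04, SE 0.36). Of the same 13, 11 were higher in CKO than in control after bleomycin, 3 at an unadjusted p under 0.05 with CKO higher, led by Rel (0.92, SE 0.36) and Tnf (2.80, SE 1.16). Of the 7 genes tested among IL-4 and IL-13 receptors, Stat6 and alternative activation genes, 6 were lower with bleomycin in control mice and 6 were higher in CKO after bleomycin. Irf4 had the smallest p of that list in both (log2 fold change -2.30, SE 0.78, and 1.82, SE 0.76), with non-overlapping groups in both. Il4 and Il13 themselves did not pass the filter. All 6 chemotaxis signalling genes were lower with bleomycin in control mice and higher in CKO after bleomycin, 1 and 3 of them at an unadjusted p under 0.05, with Pik3cg (1.18, SE 0.42) and Rac2 (1.25, SE 0.55) first in the latter. Among the proteases that trim CC chemokines, the macrophage elastase Mmp12 had log2 fold changes of -1.70 (SE 0.99) and 2.89 (SE 1.03) in the same comparisons, and the gelatinase Mmp2 had 2.26 (SE 0.78) and -1.87 (SE 0.77).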

How the data were processed

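RNA-Seq counts per gene were used as deposited. Per the labels and the study's methods, the authors trimmed paired 75-base reads of stranded, rRNA-depleted total RNA with cutadapt (version 1.18 in the processing notes), aligned them to GRCm38 with HISAT2 2.1.0 and derived whole-number counts from StringTie coverage, transcript length and read length. Such counts are estimates and split reads of overlapping transcripts by model. The 17 libraries were sequenced in 2 runs whose membership per library was not given in the sources used here.

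The 10481 of 55421 genes that exceeded 10 CPM in 2 or more libraries were fitted with edgeR 4.0.16 (R 4.3.3; TMM; quasi-likelihood; 1 mean per group over 17 libraries, no covariate). p-values were Benjamini-Hochberg adjusted over all 10481 genes (threshold 0.05). p-values measure the spread between single mice. Total counts, with a median of 93075927, leave counting error small beside that spread. log2 CPM had a prior count of 2. Marker scores average the list genes that passed the filter. The fit was tested on counts simulated with the dispersion of these data, for bleomycin in control mice. It called 3 of 50 genes changed by a log2 fold change of 1 and 33 of 50 changed by 2. At 4 and 8 it called 45 and 48 of 50, with 7 false calls, so changes of 1 were mostly missed. The changed genes were drawn at random from the 10481, and no cell mixture shared between genes was simulated. These rates are therefore not those of the members, whose SE were 0.76 to 1.98 in that comparison. Alternatives were DESeq2 1.42.0, limma 3.58.1 voom with quality weights, other filters, scalings and covariates, and leaving out each library. Single values were compared by exact permutation (scipy 1.17.1). Gene models were GENCODE M21 (55154 identifiers matched, 53642 with the same symbol). Promoters were from RefSeq.

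The members and gene lists were chosen with earlier results of these data known. The text names all members, the 3 genes most like each member (a few genes and 1 sequence are not reported here), and, per list, the tested genes of smallest p in either direction. Ccl5, named beyond that, is the only other CC chemokine tested.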

Additional observations from a re-analysis of the deposited data

Results flagged for a closer look

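In 40 sets of values (10 genes in 4 groups), 6 held a mouse set apart from the rest of its group by a gap above Dixon's 95% limit. Chance flags about 1 in 20 sets of continuous values. The 3 sets of Ccl11 cannot be read against that share, since any count above 0 passes where the other mice are all at 0. Ccl6 was at 395 CPM in control bleomycin mouse 1 (47717 counts), against 3356 to 3862 CPM in the other 3 mice. The same mouse had the lowest macrophage marker score of all libraries (4.90), and the part of that in its Ccl6 level was not tested. Ccl7 was at 79.2 CPM in control bleomycin mouse 2, against 42.2 to 46.0 CPM in its group. Ccl9 was at 230 CPM in CKO PBS mouse 2, against 1558 to 2844 CPM in its group. That mouse had the highest sums of epithelial (2141 CPM) and mesothelial (602 CPM) markers of all libraries. Control PBS mouse 1 came next in both (1800 and 402 CPM). The part of these cells in the Ccl9 levels was not tested.

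The remaining 3 concern Ccl11, which was at 0 in the other mice of each group. It was at 0.217 CPM in control PBS mouse 3 (21 counts), at 0.0682 CPM in CKO PBS mouse 3 (6 counts) and at 13.3 CPM in CKO bleomycin mouse 2 (1422 counts). The mice 3 of control PBS and CKO PBS had the highest fibroblast marker score of their groups (7.99 and 6.41), as did CKO bleomycin mouse 2 (7.06). The part of the cell mixture in these counts was not tested.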

How the results depend on the processing

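Of 32 log2 fold changes (8 members in 4 comparisons), 15 kept their direction under all settings tried and 17 turned under at least one. The settings on column runs and on series 12 alone were chosen after seeing the data. The causes were not tested. No paired analysis was possible because the replicate numbers were given in accession order and mark no pairs.

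DESeq2 without a covariate called 166 genes for bleomycin in control mice, 1 for CKO after PBS, 399 for CKO after bleomycin and 1 for bleomycin in CKO mice, and 1 member in the first (Ccl22, -4.57). With column run as a covariate it called 231, 0, 387, 1 and, for the interaction, 1 gene, with 1 member in the first (Ccl9, -2.30). limma voom with quality weights called 46 genes in the first and 4651 in the third comparison, with 1 member in the latter (Ccl3, 1.64). Series 12 alone gave 4 genes for bleomycin in CKO mice. Leaving out 1 library gave 0 to 2 genes for bleomycin in control mice and 0 to 1 for CKO after bleomycin.

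For bleomycin in control mice, turned log2 fold changes were -0.26 for Ccl7 (fibroblast score), and 1.20 for Ccl22 and 0.40 for Ccl4 (series 12). For CKO after PBS they were, for Ccl22, 0.0023 (DESeq2 with column run), 0.93 (voom), 0.57 (series covariate) and 3.48 (series 12), and -0.061 for Ccl9 (sex). For CKO after bleomycin they were -0.41 (voom), -0.081 (sex) and -1.97 (without the 3 libraries at odds with their sex) for Ccl2, -0.0041 (series covariate) and -0.47 (series 12) for Ccl22, -0.46 for Ccl6 (macrophage score), and -3.35 for Ccl8 (without the 3 libraries). Without these 3, the CKO bleomycin mice left are of series 11 and the control bleomycin mice of series 12. Ccl7, near 0, gave 0.31 (DESeq2 with column run), 0.29 (column run), 1.38 (fibroblast score), 0.48 (macrophage score), 0.95 (series 12) and 0.006 (only the groups compared). For bleomycin in CKO mice they were 0.46 (voom) and 0.60 (series 12) for Ccl2, 0.33, 0.59, 0.31 and 1.76 for Ccl7 (DESeq2 with column run, voom, column run, series 12), 0.94, 4.08, 0.93 and 5.26 for Ccl8 (the same 4) and 2.73 and 2.25 for Ccl8 (series covariate, sex), and, without the 3 libraries, 0.17 for Ccl22, 0.12 for Ccl6 and 0.058 for Ccl9.

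With 1 library left out, log2 fold changes for CKO after PBS ranged from -0.64 to 0.15 (Ccl6), -0.26 to 1.12 (Ccl9) and -2.17 to 1.34 (Ccl22). For CKO after bleomycin they ranged from -1.31 to 0.46 (Ccl2), -0.018 to 0.89 (Ccl6) and -2.07 to 0.38 (Ccl7), and for bleomycin in CKO mice from -1.63 to 0.26 (Ccl2), -0.82 to 0.087 (Ccl6), -2.17 to 1.32 (Ccl7), -0.84 to 4.15 (Ccl8) and -3.19 to 0.69 (Ccl22).

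Relations to the marker scores turned sign within groups (Ccl22 with fibroblast 0.039 and macrophage -0.045), within series 11 (fibroblast with Ccl22 0.37, Ccl6 0.19 and Ccl9 0.30; macrophage with Ccl22 -0.15, Ccl6 -0.019, Ccl8 0.034 and Ccl9 -0.014) and within series 12 (Ccl22 with macrophage -0.15). Ccl3 with the fibroblast score no longer passed within groups (-0.48), series 11 (-0.82) or series 12 (-0.65). Without the 2 farthest libraries, the macrophage score passed with Ccl22 (0.76), Ccl3 (0.82), Ccl4 (0.64) and Ccl9 (0.75).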

Other observations

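Another CC chemokine, Ccl27a, is split over several identifiers in the table, and its counts moved between them with the table's columns. The columns form 2 sorted runs, of 8 and 9 libraries. In one run ENSMUSG00000073888 held 4 to 9 counts and ENSMUSG00000095247 held 54 to 138, and in the other run they held 33 to 205 and 3 to 9. Both runs hold mice of all 4 groups, and what differs between them was not tested.

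Ccl5 was high in 1 culture. CKO PBS mouse 1, which was also the highest library for Ccl3, Ccl4 and Ccl17, had 37001 Ccl5 counts (451 CPM), and the control bleomycin libraries had 26 to 75 counts.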
